A study of Homo sapiens with 24 samples.

Results

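The FDI-6 experiment compared 3 libraries of A549 cells that received the compound (FDI6) with 3 control libraries (control_FDI6). These are 6 of the 24 RNA-seq samples of the series, and they were chosen by their titles. A comparison near the end also uses 8 libraries of A549 cells transfected with 25 nM siRNA. They are 4 with FOXM1 siRNA (siFOXM1) and 4 with scrambled siRNA (siControl). A549 is an established human line from a lung adenocarcinoma. The FDI6 cells were given the compound at 20 µM and collected after 24 h, and this dose and time are the ones analysed here. The labels call the control cells wild type and name no vehicle, while the study's list of supplementary tables sets FDI-6 against DMSO, the usual solvent of such compounds. All 6 libraries come from 1 line, were made from poly(A)-captured RNA and were sequenced as read pairs. The labels number 3 replicates per condition, and the study's methods describe its RNA-seq replicates as biological without saying how they were separated, so the p-values measure the spread between these samples. The study used FDI-6 as a candidate inhibitor of FOXM1 and MYBL2, and the comparison asks which transcripts differed after treatment.

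FDI-6 (forkhead domain inhibitor 6) is a small molecule known to keep the transcription factor FOXM1, a driver of G2/M-phase genes, from binding DNA. Among the programs described here, the heat-shock response raises chaperones through the factor HSF1, whose heat-shock element is a row of inverted GAA units. NF-kB factors switch on chemokine genes together with their own inhibitors, the integrated stress response acts through ATF4 and slows translation, and NRF2 raises antioxidant enzymes.

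The promoter sequences are shown first for HSPA6 and CXCL8, which had the largest rises among well-counted genes, and for the neighbouring chemokine genes that carry the same site as CXCL8. They are RefSeq reference sequences of the GRCh38.p14 build, written 5′ to 3′ on the strand of the gene, and bases are counted back from the start in the RefSeq promoter table. For HSPA6 the stretch is chr1:161524290-161524539 on the plus strand, and the capitals mark 3 heat-shock units, the letters GAA, NN, TTC, NN and GAA in a row on the opposite strand, at bases 74 to 62 before the start.
HSPA6: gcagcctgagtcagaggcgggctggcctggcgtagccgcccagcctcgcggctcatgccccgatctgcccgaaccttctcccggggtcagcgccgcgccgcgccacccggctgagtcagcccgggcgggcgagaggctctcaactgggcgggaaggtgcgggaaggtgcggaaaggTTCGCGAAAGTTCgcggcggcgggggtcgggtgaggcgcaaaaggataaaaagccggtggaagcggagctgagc
For CXCL8 the stretch is chr4:73740319-73740568 on the plus strand, and the capitals mark the NF-kB site GGAATTTCC at bases 91 to 83 before the start. The GENCODE model of CXCL8 begins farther upstream, at base 73740519, so the end of this stretch lies within that model, and the site lies before it.
CXCL8: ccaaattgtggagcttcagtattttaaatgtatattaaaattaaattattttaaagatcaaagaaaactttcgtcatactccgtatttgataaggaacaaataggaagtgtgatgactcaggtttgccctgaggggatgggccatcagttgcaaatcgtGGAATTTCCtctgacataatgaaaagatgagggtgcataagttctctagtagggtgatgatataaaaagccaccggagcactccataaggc
The same letters, in capitals, stood at bases 78 to 70 before the start of CXCL1 (chr4:73869289-73869349, plus strand), 77 to 69 of CXCL2 (chr4:74099238-74099298, minus strand), 78 to 70 of CXCL3 (chr4:74038733-74038793, minus strand) and 90 to 82 of CXCL5 (chr4:73998733-73998793, minus strand).
CXCL1: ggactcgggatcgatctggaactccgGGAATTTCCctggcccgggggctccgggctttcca
CXCL2: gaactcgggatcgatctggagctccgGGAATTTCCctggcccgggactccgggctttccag
CXCL3: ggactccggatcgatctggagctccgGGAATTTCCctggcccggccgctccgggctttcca
CXCL5: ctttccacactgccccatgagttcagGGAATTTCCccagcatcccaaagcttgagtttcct

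The letters were searched on both strands of the 250 bases before each start, and a match is a description of the letters, not of binding. The motifs were chosen with these genes known. The heat-shock element was found in 155 of 35116 promoters (0.441%), and in 8 of the 28 tested heat-shock genes in the promoter table, of which HSPA6 alone was called. Among tested genes with a single promoter in the table it was in 25 of 7954 (0.314%), in 3 of 609 called higher (0.493%) and in 1 of 451 called lower (0.222%). GGAATTTCC was found in 145 of the 35116 promoters (0.413%). It was in 32 of 7954 tested genes with a single promoter in the table (0.402%), in 15 of 609 such genes called higher after FDI-6 (2.46%) and in 1 of 451 called lower (0.222%). With any base at 2 of its positions (GG, NN and TTTCC in a row) it was in 5.48% of all promoters, in 469 of the 7954 tested genes (5.9%), in 49 of the 609 called higher (8.05%) and in 23 of the 451 called lower (5.1%). An AP-1 site (TGA, N and TCA in a row) was searched as well and was in 6.57% of all promoters. It was in 295 of the 7954 tested genes (3.71%), 40 of the 609 called higher (6.57%) and 14 of the 451 called lower (3.1%). The promoters of HSPA6 (from bases 244 and 139 before the start) and CXCL8 (from base 137) carry it too, not marked above. These shares were not tested. Of the 6 tested chemokine genes in the table, 5 had GGAATTTCC, and all 5 were called higher. The site was chosen with these 5 genes known, and they are among the 15 of 609 above. HSPA6 is likewise among the 3 of 609 with the heat-shock element. The shares among genes called higher are therefore a description.

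The pairs that fell on genes numbered 16487394 to 17741253 in the FDI6 libraries (median 17220262) and 18856286 to 21039750 in the control libraries (median 19019379). Among the FDI6 libraries, replicate 1 stood apart. Its counts differed from those of replicates 2 and 3 with a chi-square of 12.94 and 18.85 per gene, against 3.885 between replicates 2 and 3 and 3.573 to 3.675 among the controls. The share of pairs not aligned was 3.03% in FDI6 replicate 1 and 2.11% and 1.9% in the other 2. Pairs on no gene made up 4.86% to 4.93% of the FDI6 files and 4.0% to 4.37% of the control files, and pairs that HTSeq could not assign to 1 gene 9.78% to 10.47% and 10.74% to 11.2%. The part of these shares in the results was not tested. No 2 libraries agreed within sampling noise, so each was counted as 1 replicate.

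The difference between the groups also moved with the length and base composition of the transcripts. The genes were cut into 4 groups of equal size by transcript length. In the longest group (median 6755.5 bases) the median log2 fold change was 0.247, with 17.2% of genes called higher and 2.21% lower, and in the shortest (median 1109 bases) it was -0.226, with 3.03% and 9.75%. After the same cut by GC content, the lowest group had a median of 0.25 and the highest one of -0.285. All 3 FDI6 libraries lay outside the range of the controls in each of these groups, and replicate 1 lay farthest out. The part of this pattern in the results below was not tested. A correction that removes a trend in length and GC from each library was therefore run as an alternative, chosen after these values were seen, and counts with it ("length- and GC-corrected") are given beside many of the lists and genes it moves.

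**Figure D1:**
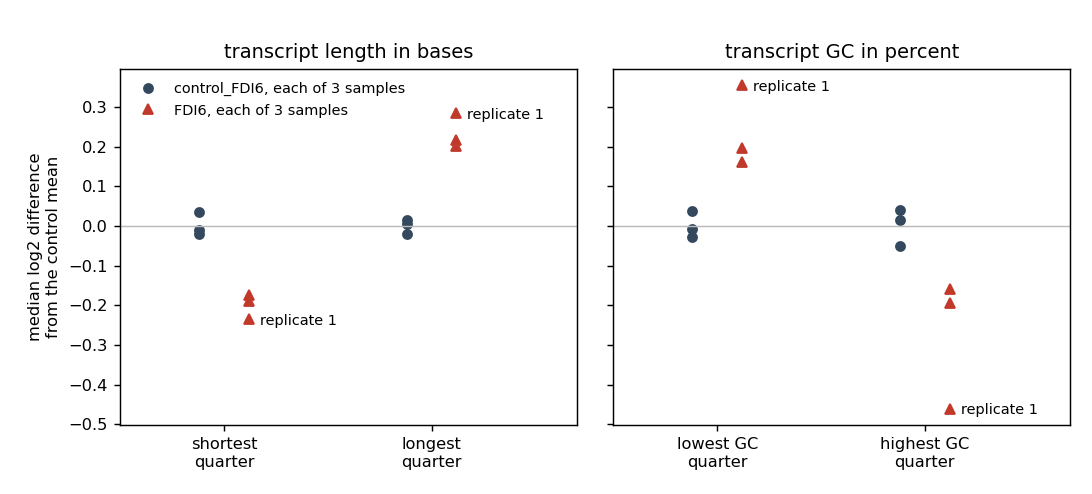
Median log2 difference from the control mean (y axis) over the shortest and longest of 4 equal groups of transcripts (left) and the groups with the lowest and highest GC content (right), 1 point per sample. FDI6 replicate 1 reached 0.284 in the longest group and -0.461 in the highest-GC group, and the control samples stayed between -0.051 and 0.039.

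After FDI-6, a heat-shock chaperone gene, a cluster of chemokine genes and several secreted or surface proteins rose the most, and FGB, which encodes a fibrinogen chain, fell the most among well-counted genes. A gene was called when edgeR's quasi-likelihood test gave an adjusted p under 0.05 and the fold change was over 1.5. Of 15240 genes tested, 2098 were called (13.8%), of which 1219 were higher (8.0% of those tested) and 879 lower (5.77%). The median change was 1.77-fold among the higher genes and 1.76-fold among the lower ones, and 59 rose and 21 fell by more than 4-fold. The groups did not overlap in 7870 genes (51.6%). With the length and GC correction 780 genes were higher and 554 lower, and 1041 of all the calls were shared, which is 49.6% of the 2098. Upper-quartile scaling shifted the median of all genes by -0.043 on the log2 scale and split the calls into 1035 higher and 1045 lower.

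HSPA6 encodes an HSP70 chaperone that is nearly silent without stress. It lies on chromosome 1 from 161524540 to 161526894, and its CPM (counts scaled to library size by edgeR's TMM method) were 89.2, 103 and 152 in FDI6 replicates 1 to 3 and 0.645, 1.11 and 0.375 in the controls. The log2 fold change was 7.30 ± 0.28 (SE), with an adjusted p of 2.68e-08. The groups were far apart, and no other gene averaging 100 or more counts per library changed as much. The controls had 12, 23 and 7 counts and alone would not have passed the filter on low counts. The size of the rise therefore rests on few control counts. Reads of HSPA6 can be shared with the closely similar HSPA7 sequence, which the counting could split.

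CXCL8 encodes interleukin-8, a chemokine that draws neutrophils, and lies on chromosome 4 from 73740519 to 73743716. It had 62.7, 49.7 and 59.4 CPM in the FDI6 samples and 1.77, 2.11 and 2.68 CPM in the controls. The log2 fold change was 4.71 ± 0.15, with an adjusted p of 1.04e-08. Every FDI6 sample was thus well above every control. CXCL8 kept its call in every alternative run. HSPA6 did so in all but the filter of at least 10 counts in every library, which removed it because a control had fewer. Their log2 fold changes with the length and GC correction were 7.53 and 4.48.

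The other leading rises were in STC1, a secreted hormone of calcium and phosphate balance (log2 fold change 2.88), CDCP1, a surface protein phosphorylated by SRC kinases (2.80), GREM1, a secreted BMP antagonist (2.48), CORO2B, an actin-binding protein (2.40), and ITGA2, the collagen-binding integrin subunit (2.32). CDCP1 had 102, 94.4 and 118 CPM in the FDI6 samples and 13.3, 15.3 and 16.4 in the controls. ITGA2 had 191, 165 and 203 CPM against 37.0, 38.0 and 36.9. In all 5 genes the groups were separate. Outside the lists, the leading falls were in DEGS2, a sphingolipid desaturase and hydroxylase (-2.55), SAMD11 (-2.44), SULT2B1, a sterol sulfotransferase (-2.01), SLC7A7, an amino acid transporter subunit (-1.89), ATOH8, a helix-loop-helix factor (-1.82), the noncoding LINC02593 (-1.75) and RHOV, a small GTPase (-1.75).

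**Figure D2:**
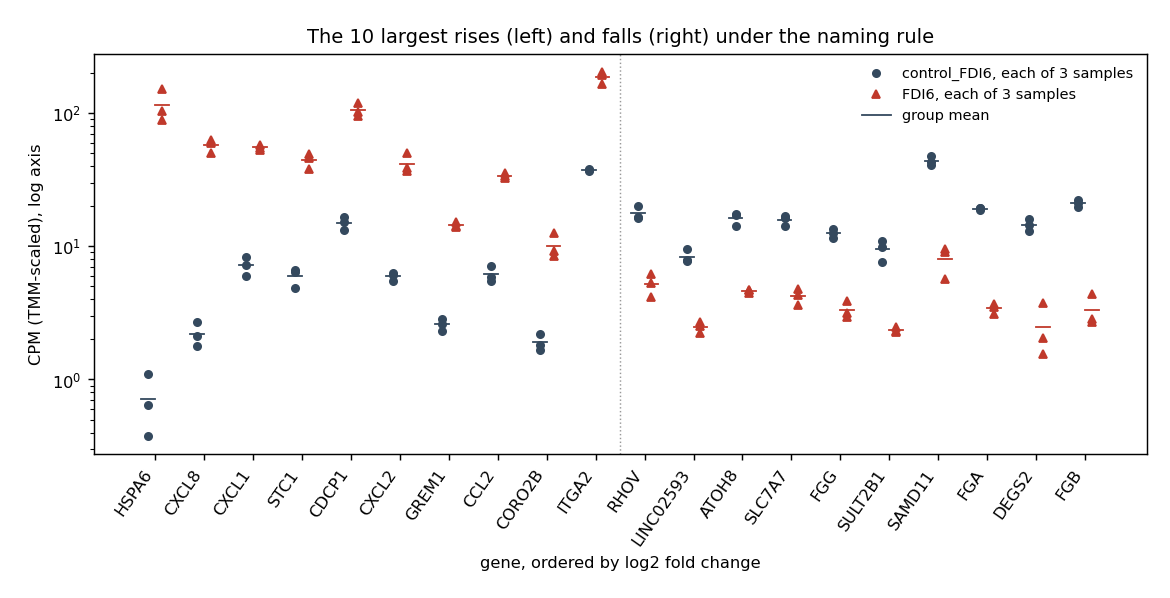
CPM in each of the 3 FDI6 and 3 control samples (log axis) for the 10 largest rises and 10 largest falls among called genes that averaged 100 or more counts and did not overlap. Lines are group means. HSPA6 went from 0.708 to 115 CPM on average, and FGB from 21.1 to 3.31 CPM.

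Most of the heat-shock list, like most of the genes tested, did not pass the thresholds. Of 31 tested genes of the heat-shock response, 3 rose (9.7%) and 1 fell (3.2%). Over all genes tested the shares were 8.0% and 5.77%, and the counts of every list below are to be read beside these. The list's median log2 fold change was 0.053 against -0.012 over all genes tested. The risers were HSPA6, HSPA1B (0.67 ± 0.08), which encodes the stress-inducible HSP70, and the small heat-shock protein gene CRYAB (3.42), named after its values were seen. HSPA6 was picked with its rise known and passed the filter on low counts through the FDI6 libraries, so the count of risers is a description. HSPA1B had 118, 138 and 149 CPM against 82.9, 85.7 and 86.1 in the controls. Its near-identical copy HSPA1A (0.55 ± 0.12), its co-chaperone DNAJB1 (0.53 ± 0.07) and BAG3 (0.46 ± 0.09) had adjusted p-values of 0.00362, 0.000118 and 0.00203 and stayed under the fold limit. HSPA1A passed it without FDI6 replicate 1 (0.69), and all 3 genes passed it with the length and GC correction, which gave 6 risers. HSPA1A and HSPA1B share reads, so the split between them is uncertain. HSPA2, a testis-enriched HSP70, fell (-0.83 ± 0.07), from 158, 158 and 156 CPM in the controls to 85.4, 95.4 and 85.0. A second member was called lower without FDI6 replicate 1 or 3 or control replicate 2 or 3. Another gene on the same strand covers 37% of the exon bases of HSPA1B.

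None of 32 genes for subunits of the 26S proteasome was called, and their median was -0.236. PSMD12 had a log2 fold change of 0.18 and PSMC4 one of -0.05, and 23 of the 32 genes lay lower in every FDI6 sample than in every control, against 51.6% of all genes that did not overlap in either direction. With the length and GC correction the median was -0.145, at a median transcript length of 1529 bases against 3046.5 over all genes. Without FDI6 replicate 3, 1 subunit was called lower.

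Among stress programs, the integrated stress response had 11 risers and no faller in 22 tested genes, with a median of 0.54. ATF3, a stress-induced repressor, rose from 3.55, 4.81 and 3.96 CPM in the controls to 12.7, 14.7 and 18.0 in the FDI6 samples (1.88 ± 0.17, adjusted p = 9.71e-06). DDIT3, the death-linked factor CHOP, had 7.85, 7.46 and 10.3 CPM against 3.33, 2.84 and 3.59 (1.39 ± 0.18). TRIB3, a pseudokinase target of ATF4 and CHOP, had 157, 174 and 210 CPM against 80.8, 75.4 and 77.6 (1.21 ± 0.10). In none of these genes did the groups overlap.

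STC2, a secreted glycoprotein (1.35 ± 0.09), SESN2, an inhibitor of mTORC1 (0.94 ± 0.11), and GDF15, a stress cytokine (0.85 ± 0.13), rose as well. ATF4 itself, which is mainly controlled at translation, had 339, 357 and 377 CPM in the FDI6 samples and 352, 313 and 335 in the controls, and its groups overlapped. PPP1R15A, which restores translation by removing the phosphate from eIF2alpha, rose by 1.27, and it was named after its values were seen. An antisense gene covers 32% of the exon bases of DDIT3, and the strand setting of the counting is not given in the sources used here. The correction left 10 risers in this list.

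The unfolded protein response of the endoplasmic reticulum (ER) had 3 risers and no faller in 26 genes, and a median of 0.099. The shares were 11.5% and 0.0%, against 8.0% and 5.77% of all genes tested. ERN1, the ER stress sensor IRE1, rose from 20.5, 21.1 and 17.5 CPM to 43.6, 37.9 and 46.8 (1.12 ± 0.11). The ER co-chaperone DNAJB9 (0.82 ± 0.10) and EDEM1, which sends misfolded glycoproteins to degradation (0.78 ± 0.08), also rose, and EDEM1 was not called with the correction (0.54). HSPA5, the main ER chaperone BiP, had 852, 829 and 847 CPM against 738, 733 and 753 and a log2 fold change of 0.18, which missed the fold limit. Whether the lists differ from each other was not tested.

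NRF2 antioxidant genes went mostly the other way. Of 35 tested, 10 fell and 1 rose, and the median was -0.463 (-0.328 with the correction, which left 8 fallers and no riser). AKR1C2, an aldo-keto reductase, fell from 1385, 1329 and 1291 CPM to 610, 571 and 597 (-1.17 ± 0.06), GPX2, a glutathione peroxidase, from 203, 191 and 195 to 104, 82.4 and 86.5 (-1.11 ± 0.09), and AKR1C3 from 976, 917 and 909 to 471, 438 and 431 (-1.06 ± 0.06). The FDI6 samples lay below every control in all 3. The AKR1C genes are near copies of each other, so reads can be split among them.

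HMOX1, which degrades heme (-0.60 ± 0.11), also fell, but it was not called without FDI6 replicate 1 (-0.47), without FDI6 replicate 2 (-0.58) or with the correction (-0.31). FTH1, the ferritin heavy chain with many processed copies, fell by 0.77, and an antisense gene covers 63% of its exon bases. SLC7A11, the cystine importer that ATF4 also drives, was the riser (0.60 ± 0.07). It lost its call without FDI6 replicate 1 (0.58) or 3 (0.58), without control replicate 1 (0.57) or 2 (0.57), and with the correction (0.08). TXNRD1 (0.29) and NQO1 (-0.18), other NRF2 genes, were not called, nor was SRXN1 (-0.67, adjusted p = 0.0726), which was called without FDI6 replicate 3 (-0.93). Another gene on its strand covers 91% of the exon bases of SRXN1.

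Of 7 tested genes for metallothioneins and zinc export, 2 rose, with a median of 0.577. The metal-binding MT2A had 944, 784 and 804 CPM in the FDI6 samples against 297, 269 and 307 (1.54 ± 0.08, adjusted p = 1.71e-07). Metallothionein copies share sequence, and MT1X had under 2 CPM in every sample. The zinc exporter SLC30A1 rose by 0.59, close to the fold limit. It lost its call in 9 of 15 alternatives, without FDI6 replicate 1 (0.56) or 3 (0.57) or control replicate 2 (0.56), with the correction (0.28), DESeq2 (0.58), RLE scaling (0.58), upper-quartile scaling (0.55), at least 10 counts in every library (0.58) and glmTreat. Without FDI6 replicate 2, 4 members were called.

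In the p53 target list 8 of 26 genes rose and 1 fell, with a median of 0.333 (0.203 with the correction, which left 6 risers). TP53INP1, a p53-induced autophagy and death gene, had 24.1, 20.3 and 21.8 CPM against 12.4, 9.32 and 11.7 (0.99 ± 0.13). MDM2, the ubiquitin ligase of p53, had 192, 165 and 169 CPM against 94.6, 86.3 and 92.1 (0.95 ± 0.08) and was not called with the correction (0.55). CDKN1A, the cell-cycle inhibitor p21, had 212, 243 and 272 CPM against 222, 214 and 208, and the groups overlapped (0.18). Its value was 0.41 with the correction and 0.27 without FDI6 replicate 1, under the fold limit in both. FDXR, a ferredoxin reductase of mitochondria, fell by 0.61 but was not called without FDI6 replicate 1 (-0.46), without control replicate 1 (-0.57) or with the correction (-0.24). Without FDI6 replicate 3, 2 members were called lower.

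Of 18 BCL2 family genes, 4 rose and none fell (median 0.106), and 6 rose with the correction. MCL1, which blocks apoptosis, went from 193, 203 and 199 CPM to 428, 421 and 502 (1.18 ± 0.07), and PMAIP1, its antagonist NOXA, from 18.7, 18.9 and 15.9 to 37.0, 35.5 and 41.8 (1.09 ± 0.10). BCL2A1 (1.72), another blocker, and HRK (1.43), a death promoter, were named after their values were seen. Of 24 autophagy genes, 3 rose and 1 fell (median 0.063). The shares were 12.5% and 4.2%, against 8.0% and 5.77% of all genes tested. The risers were the receptors OPTN (0.92 ± 0.08) and SQSTM1, or p62 (0.69 ± 0.07, 917, 1059 and 1126 CPM against 647, 650 and 624), and the phagophore protein WIPI1 (0.80 ± 0.15). Antisense genes cover 22% of the exon bases of SQSTM1 and 28% of those of WIPI1. MAP1LC3B, which encodes LC3B, had a log2 fold change of 0.37 and was not called. TFEB, a regulator of lysosome genes, fell by 1.16 and was named after its values were seen.

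**Figure D3:**
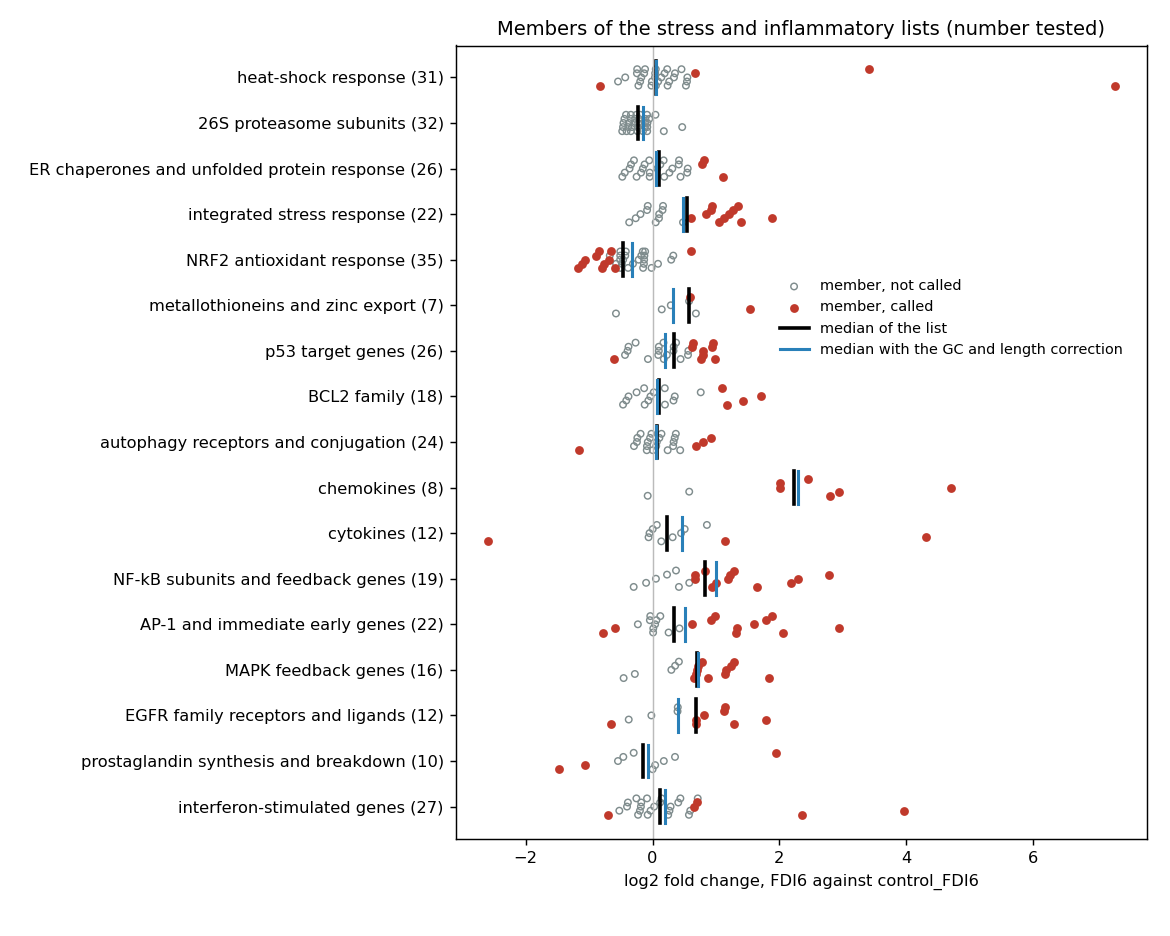
Log2 fold change of each tested member (x axis) of the stress and inflammatory lists (y axis, number tested in brackets); filled points were called, black bars are list medians and blue bars the medians with the length and GC correction. The chemokine median of 2.238 lies far from that of all genes (-0.012), and the NRF2 list lies left of 0 with a median of -0.463.

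Most chemokine genes that could be measured rose. Of 18 on the list 8 passed the filter on low counts, and 6 of these rose and none fell, with a median of 2.238 (2.29 with the correction). CXCL1 and CXCL2, neutrophil attractants that share the receptor CXCR2, had 54.6, 52.9 and 57.8 CPM and 36.6, 38.3 and 50.3 CPM in the FDI6 samples. In the controls they had 6.02, 7.26 and 8.25 CPM and 6.34, 5.53 and 6.10 CPM. CCL2, which draws monocytes, had 33.8, 35.2 and 32.7 CPM against 5.48, 5.91 and 7.07.

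The log2 fold changes were 2.94 ± 0.11 for CXCL1, 2.80 ± 0.14 for CXCL2 and 2.46 ± 0.11 for CCL2, and no FDI6 sample came near a control. CXCL3 (2.01) and CXCL5 (2.02), named after their values were seen, rose as well. The 5 CXCL genes among the risers lie together on chromosome 4 and carry the site printed above. The summed level of the 8 tested members ran from 1209.4 to 1372.1 CPM in the FDI6 samples and from 310.3 to 322.1 CPM in the controls. The other 10 list members were too low to be tested, so the count speaks for those 8 alone.

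Cytokines were mixed, with 2 risers and 1 faller in 12 tested genes and a median of 0.228 (4 risers, 1 faller and 0.47 with the correction). IL32 had 10.9, 7.40 and 9.15 CPM against 3.49, 4.57 and 4.28 (1.15 ± 0.18). IL24 (4.32) rose from low counts and was named after its values were seen. IL6 had 1.08, 0.289 and 0.665 CPM in the FDI6 samples and 0, 0 and 0.0536 in the controls and was too low to be tested, as was IL1B. IL11 (0.51 ± 0.15) missed the fold limit. It passed without FDI6 replicate 1 (0.65), without control replicate 3 (0.60) and with the correction (0.69), and the number of risers was 4 or 5 without FDI6 replicate 2 or without any of the control replicates.

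NF-kB subunits and feedback genes rose in 12 of 19 cases, with no faller and a median of 0.82 (1.004 with the correction). TNFAIP3, the A20 enzyme that shuts off NF-kB signals, had 20.5, 19.3 and 22.8 CPM against 3.55, 5.24 and 3.86 (2.30 ± 0.15). BIRC3, the ubiquitin ligase cIAP2, had 143, 113 and 117 CPM against 25.3, 28.1 and 28.7 (2.19 ± 0.10). REL, a DNA-binding subunit, had 14.7, 13.1 and 14.9 CPM against 4.73, 3.65 and 5.30 (1.65 ± 0.15), though 33% of its exon bases overlap another gene on its strand.

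NFKBIA, the inhibitor IkB-alpha, rose by 0.82 ± 0.08, with 76.2, 79.2 and 89.6 CPM against 45.4, 47.4 and 45.9. The groups were separate in each of these 4 genes. ICAM1, the leukocyte adhesion receptor (2.78), NFKBIZ, a nuclear co-regulator (1.28), RELB (1.19) and NFKB2 (0.95), both subunits of the noncanonical arm, were also higher and were named after their values were seen. GGAATTTCC was in the promoters of ICAM1, NFKBIA, NFKBIZ and REL, 4 of the 10 risers of this list found in the promoter table, and in 6 of its 16 tested genes there.

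AP-1 subunits and other immediate early genes rose in 10 of 22 cases and fell in 2 (median 0.339). EGR1, a zinc-finger early gene (2.06 ± 0.23), ATF3, given above (1.88), and FOSL1, or FRA1 (1.79 ± 0.13), led by the naming rule, and JUN, an anchor of the list, rose by 1.60 ± 0.11. JUN had 74.98, 85.0 and 102 CPM against 28.98, 29.6 and 28.1, and FOSL1 had 91.2, 128 and 138 CPM against 31.2, 36.6 and 35.6. The fallers were MAFK (-0.78 ± 0.24) and JUND (-0.59 ± 0.12). Neither was called without FDI6 replicate 1 (-0.47 and -0.44), without control replicate 2 (-0.68 and -0.55) or with the correction (-0.53 and -0.11), and MAFK was not called without control replicate 1 (-0.80) or with DESeq2 (-0.78, adjusted p = 0.11). Neither was called with glmTreat.

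Feedback inhibitors of the MAP kinase pathway, which are transcribed when ERK is active, rose in 11 of 16 cases with a median of 0.706. The ERK phosphatase DUSP5 had 103, 112 and 121 CPM against 33.3, 31.8 and 28.3 (1.84 ± 0.09). SPRY4, an inhibitor of receptor signals (1.29 ± 0.12), PHLDA1 (1.24 ± 0.09) and the ERK phosphatase DUSP6 (1.16 ± 0.13) rose too, with separate groups, and an antisense gene covers 29% of the exon bases of DUSP6. DUSP1, which removes phosphate from p38 and JNK, had 258, 263 and 275 CPM against 163, 169 and 154 (0.71 ± 0.06). With the correction 9 members rose, and 1 member was called lower without FDI6 replicate 2.

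EGFR family receptors and ligands had 7 risers and 1 faller in 12 genes, and a median of 0.69. EREG, the ligand epiregulin, had 411, 356 and 372 CPM against 109, 104 and 117 (1.79 ± 0.07). EGFR itself had 388, 345 and 376 CPM against 148, 149 and 156 (1.29 ± 0.07), and the ligand TGFA had 25.8, 27.1 and 26.1 against 12.1, 10.6 and 13.1 (1.14 ± 0.10). HBEGF rose by 1.12, while AREG had 69.7, 66.7 and 64.3 CPM against 66.3, 66.6 and 70.2 and overlapped. ERBB3 fell (-0.65 ± 0.15) and was not called without FDI6 replicate 1 (-0.58). These are long transcripts (median 4586 bases), and with the correction 4 members rose and the median was 0.395, with EGFR at 1.01 and EREG at 1.44.

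Of 10 genes of prostaglandin synthesis and breakdown, 1 rose and 2 fell (median -0.148). PTGS2, the inducible cyclooxygenase COX-2, had 257, 213 and 236 CPM in the FDI6 samples and 61.6, 59.5 and 62.7 in the controls (1.94 ± 0.08, adjusted p = 3.51e-08). PTGES, the prostaglandin E synthase that works with it, had a log2 fold change of 0.35 and was called with the correction (0.60). The fallers were AKR1C3, which makes prostaglandin F, and the receptor gene PTGER2 (-1.47), which was named after its values were seen.

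Interferon-stimulated genes had 4 risers and 1 faller in 27 genes and a median of 0.121. The shares were 14.8% and 3.7%, against 8.0% and 5.77% of all genes tested. SAMD9, an antiviral gene, rose by 0.70 and PSMB9, an immunoproteasome subunit, fell by 0.70, and neither was called with the correction (0.26 and -0.48). IFI44 (3.96) and OASL (2.36), both at low counts, were named after their values were seen. ISG15 had 3.23, 4.05 and 5.77 CPM against 5.00, 3.60 and 4.28 and IFIT1 had 2.34, 2.66 and 2.16 against 4.03, 3.03 and 2.41, and both overlapped. A second member was called lower without FDI6 replicate 1 or 3 or without any of the controls.

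The metabolic lists each had between 0 and 4 risers and between 0 and 11 fallers. The nuclear genes of the respiratory chain had the most fallers (11 of 71). Cholesterol synthesis and uptake had 1 riser in 25 genes and a median of 0.027. That riser was INSIG1, which holds the sterol sensor in the ER, with 47.9, 46.6 and 49.3 CPM against 27.4, 27.3 and 27.8 (0.80 ± 0.08). HMGCS1, an early enzyme of the pathway, had a log2 fold change of 0.36 with an adjusted p of 0.00191 and stayed under the fold limit. The number of risers was 3 without FDI6 replicate 2 and 2 without FDI6 replicate 3 or control replicate 1, and 1 member was called lower without FDI6 replicate 3 or control replicate 2 or 3.

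Fatty acid synthesis and desaturation had 2 risers and 2 fallers in 18 genes (median 0.15). ACSL4, which activates arachidonic acid, had 78.1, 63.6 and 67.0 CPM against 36.2, 33.4 and 36.2 (0.98 ± 0.09). ELOVL7, an elongase, rose by 0.66 and SREBF1, which encodes the lipogenic factor SREBP1, fell by 0.65. Both lost their calls without FDI6 replicate 1 (0.58 and -0.55) and with the correction (0.37 and -0.46). Without each of the other libraries in turn, 1 member was called lower. FASN, the fatty acid synthase, overlapped between the groups (0.03), and the desaturase SCD had 674, 676 and 713 CPM against 592, 583 and 571 (0.24), under the fold limit.

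Fatty acid oxidation had 1 faller in 19 genes and a median of -0.19. It was ACADS, the short-chain dehydrogenase (-0.65 ± 0.15), which was not called without FDI6 replicate 1 (-0.48) or with the correction (-0.27). CPT1A, which brings fatty acids into mitochondria, had 0.19, and ACADM overlapped. The count of fallers was 2 without FDI6 replicate 1 or 3 and without control replicate 2 or 3.

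In glycolysis, 1 of 22 genes rose and 1 fell, and the median was -0.224. HK2, the inducible hexokinase, had 11.6, 15.6 and 15.2 CPM against 5.11, 4.85 and 4.61 (1.54 ± 0.15). SLC2A3, the glucose carrier GLUT3, fell from 55.9, 59.3 and 54.2 CPM to 33.4, 28.6 and 25.5 (-0.96 ± 0.10). Both pairs of groups were separate. SLC2A1, the carrier GLUT1, had -0.13 and PKM -0.24, and neither was called. Without FDI6 replicate 1 or 3, 2 members were called lower.

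Among 17 hypoxia-responsive genes 2 rose and 3 fell (median -0.056). NDRG1 rose by 0.77 ± 0.08 and HILPDA, a lipid droplet protein, and EGLN3, an oxygen-sensing hydroxylase, fell by 0.78 and 0.91. PDK1, which brakes pyruvate dehydrogenase, rose by 0.73 and lost its call with the correction (0.25). CA9, at under 2 CPM in every sample, had -1.70 with overlapping groups, and it was not called without FDI6 replicate 2 (-1.48) or 3 (-1.27), without control replicate 1 (-1.58) or 3 (-1.47) or with the correction (-1.35). VEGFA had 34.6, 37.4 and 35.98 CPM against 26.6, 29.5 and 29.2 (0.34) and was not called.

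Of 24 genes of the TCA cycle and pyruvate dehydrogenase, 1 fell (median -0.162). PC, pyruvate carboxylase, had 22.3, 23.4 and 25.1 CPM against 38.0, 44.1 and 35.8 (-0.74 ± 0.10) and was not called with the correction (-0.55). Citrate synthase (CS) overlapped between the groups, and IDH3A had a log2 fold change of 0.30.

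Nuclear genes of the respiratory chain leaned lower. Of 71 tested, 11 fell and none rose, and the median was -0.384. NDUFA1 (-0.92 ± 0.19), UQCR10 (-0.68 ± 0.09) and NDUFB2 (-0.68 ± 0.13) fell the most under the naming rule. NDUFS1, a core subunit of complex I, had 114, 106 and 106 CPM against 112, 107 and 110. Over the alternatives the lowest value of NDUFS1 was -0.42, under the fold limit. NDUFA1 had 18.7, 27.5 and 35.6 CPM against 63.6, 46.6 and 44.8, so both groups were spread. NDUFB2, whose exon bases are covered to 35% by antisense genes, was not called without control replicate 1 (-0.53), and neither NDUFB2 (-0.38) nor UQCR10 (-0.53) was called with the correction. The list's transcripts are short (median 758 bases), and with the correction 5 genes fell and the median was -0.225. The count of fallers was 17 without FDI6 replicate 3, 4 without control replicate 1 and 18 without control replicate 2.

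Of 13 genes that mitochondria encode, 2 fell, and the median was 0.017. MT-CO3, of complex IV, had 5520, 6153 and 5546 CPM against 9208, 8775 and 9221 (-0.66 ± 0.05). MT-ND3 fell by 0.59 and was not called without FDI6 replicate 1 (-0.48) or control replicate 1 (-0.43), and neither gene was called with the correction (-0.52 and -0.55) or with glmTreat. MT-ND3 also lost its call with the replicate block (-0.58) and with all 24 libraries (-0.58). MT-CO1 and MT-ND1 overlapped between the groups. Without FDI6 replicate 3, 1 member was called higher.

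Cytosolic ribosomal protein genes had 2 fallers in 78, with a median of -0.295, and 60 of the 78 were lower in every FDI6 sample, against 51.6% of all genes that did not overlap in either direction. The fallers RPL41 (-0.80 ± 0.17) and RPL39 (-0.61 ± 0.14) have very short transcripts and processed copies elsewhere. Neither was called without FDI6 replicate 1 (-0.58 and -0.49), and RPL39 was not called without control replicate 1 (-0.46) or with the correction (-0.51). RPLP0 had -0.27 and RPS6 -0.23, under the fold limit. At a median length of 827 bases the list had a median of -0.144 and 3 fallers with the correction, and 8 members were called lower without FDI6 replicate 3 and 5 without FDI6 replicate 2 or control replicate 2 or 3.

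Serine and one-carbon metabolism had 1 riser in 18 genes (median -0.048), the mitochondrial folate enzyme ALDH1L2, with 24.1, 23.1 and 20.2 CPM against 11.9, 10.7 and 12.3 (0.95 ± 0.11). MTHFD2 (0.43) and PHGDH (-0.19) were not called, and 1 member was called lower without FDI6 replicate 2. None of 20 cytosolic aminoacyl-tRNA synthetase genes was called, although ATF4 is known to drive several of them, and their median was 0.164. WARS1 had a log2 fold change of 0.28 and SARS1 one of 0.12.

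In xenobiotic metabolism 4 of 23 genes rose and 4 fell, with a median of -0.128. The risers included 3 known targets of the aryl hydrocarbon receptor (AHR), a sensor of flat aromatic compounds. TIPARP, an AHR repressor, had 111, 106 and 101 CPM against 31.5, 25.9 and 30.1 (1.86 ± 0.09). CYP1A1 had 7.79, 4.51 and 4.66 CPM against 1.18, 1.59 and 1.29 (2.05 ± 0.27), and CYP1B1 had 115, 88.9 and 90.4 CPM against 40.4, 40.5 and 45.4 (1.22 ± 0.10).

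In all 3 AHR targets the groups were separate, and all 3 stayed called in every alternative run. CYP3A5 rose by 0.83 but was not called without control replicate 1 (0.71, adjusted p = 0.0570) or 2 (0.71, adjusted p = 0.0559). CYP4F3, which breaks down leukotrienes, fell from 30.5, 30.2 and 32.5 CPM to 16.5, 15.04 and 16.9 (-0.94 ± 0.09). ALDH1A1, a retinaldehyde dehydrogenase, had 6711, 6433 and 6194 CPM against 8142, 7742 and 8120 (-0.31), under the fold limit. Of 14 iron-handling genes 2 fell, FTH1 and HMOX1 given above, with a median of -0.104 (3 fallers with the correction), and the transferrin receptor TFRC had a log2 fold change of 0.32.

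**Figure D4:**
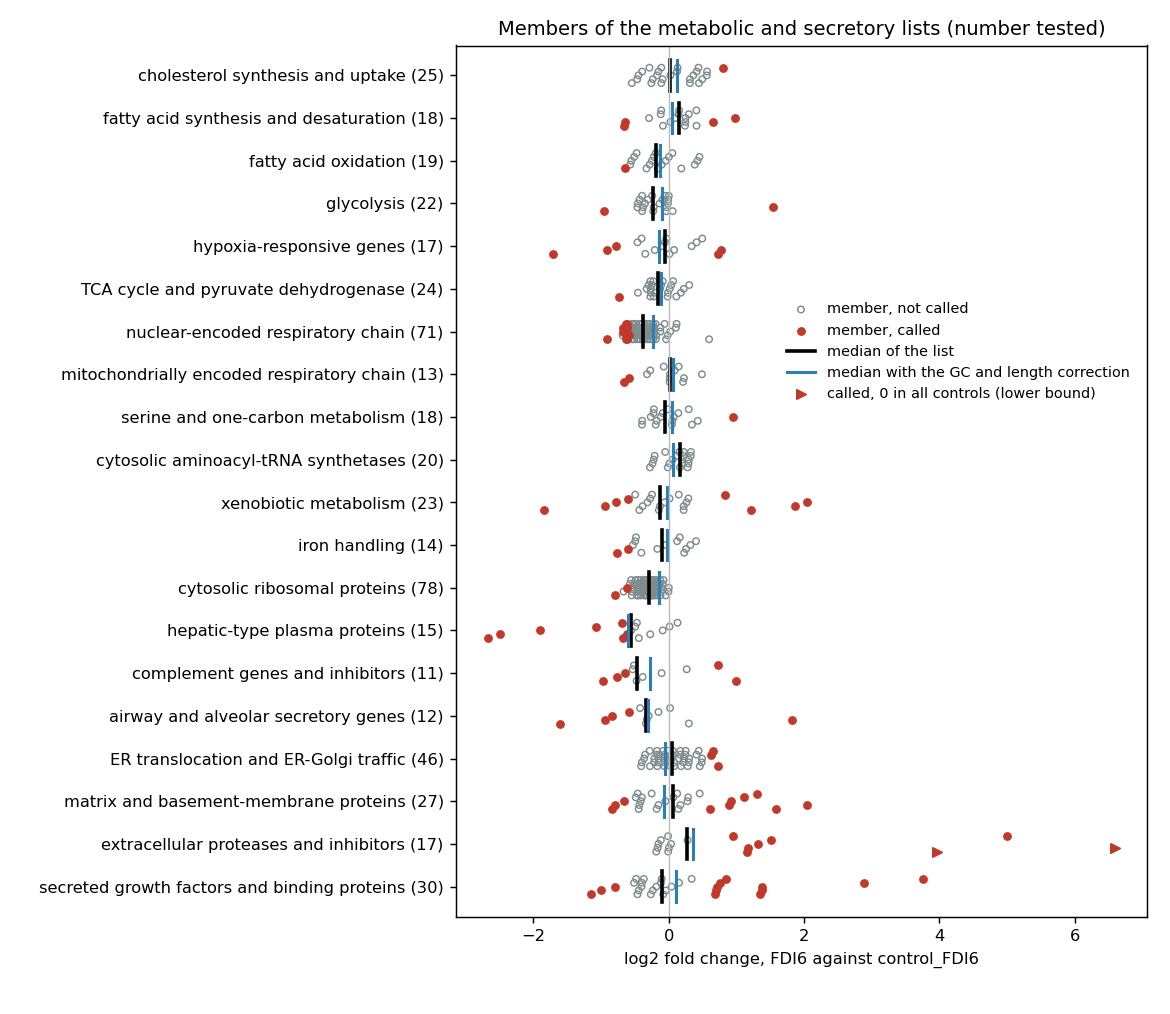
Log2 fold change of each tested member (x axis) of the metabolic and secretory lists (y axis, number tested in brackets); filled points were called, triangles are lower bounds for genes at 0 in all controls, and black and blue bars are medians without and with the length and GC correction. The fibrinogen genes lie at the far left of the hepatic-type plasma proteins (lowest -2.673), and the respiratory chain is packed between 0 and its lowest value of -0.917 apart from 4 genes above 0.

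Among secreted proteins, several plasma proteins that the liver normally makes fell. Of 31 on the list 15 passed the filter, and 7 of these fell and none rose, with a median of -0.554 (-0.595 with the correction). The 3 fibrinogen chains, which lie side by side on chromosome 4 and are induced in the liver by interleukin-6, led the list. FGB had 4.37, 2.72 and 2.83 CPM in the FDI6 samples and 21.2, 19.6 and 22.4 in the controls (-2.67 ± 0.17, adjusted p = 5.81e-07). FGA had 3.11, 3.47 and 3.66 CPM against 19.5, 18.7 and 19.4 (-2.49 ± 0.12), and FGG had 3.89, 2.95 and 3.16 against 13.4, 11.4 and 12.6 (-1.90 ± 0.15).

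The fibrinogen groups were separate for all 3 chains, at between 15.7% and 26.8% of the control level. The falls of FGA and FGB held in every alternative run, and FGG lost its call with all 24 libraries in the fit (adjusted p = 0.159). AMBP (-1.07), APOE (-0.69), APOH (-0.67) and FGL1 (-0.62) also fell and were named after their values were seen. SERPINA1, alpha-1-antitrypsin, was under 2 CPM in every sample and overlapped.

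Complement genes were mixed, with 2 risers and 3 fallers in 11 genes and a median of -0.474. The risers were surface inhibitors of complement, CD55 (0.99 ± 0.07, with 109, 97.1 and 99.2 CPM against 50.9, 49.5 and 53.1) and CD59 (0.74 ± 0.08). Among the fallers were the secreted VTN (-0.97 ± 0.15) and CFD (-0.76 ± 0.10). CD59 (0.46) and CFD (-0.28) were not called with the correction. C3, the central component, had 33.5, 27.1 and 30.5 CPM against 32.9, 32.8 and 32.3 and overlapped.

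Airway and alveolar secretory genes had 1 riser and 4 fallers in 12 tested genes (median -0.33). SPDEF, a factor for goblet cells, had 5.21, 5.67 and 5.77 CPM against 16.1, 18.2 and 16.4 (-1.60 ± 0.12), and AGR2, an ER protein needed for mucin folding, had 92.8, 75.7 and 76.7 against 153, 136 and 149 (-0.84 ± 0.09). FOXA2 fell by 0.59 and lost its call without FDI6 replicate 1 (-0.43), without control replicate 1 (-0.58) and with the correction (-0.35). LCN2, the iron-carrier-binding lipocalin that NF-kB is known to induce, rose from 2.80, 2.74 and 3.05 CPM to 11.6, 9.20 and 9.65 (1.82 ± 0.16). The gel mucin MUC5AC had 99.5, 66.7 and 81.4 CPM against 82.7, 85.0 and 76.2 and overlapped, as did MUC1. SFTPB, the surfactant protein that marks alveolar type II cells, was near 0 in all 6 samples.

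In the machinery of secretion the share of risers lay near that of all genes tested (6.5% against 8.0%). Of 46 genes of ER translocation and ER-Golgi traffic 3 rose and none fell (5.77% of all genes fell), with a median of 0.045. They were SEC24D (0.73 ± 0.09) and SEC24A (0.63 ± 0.11), cargo adaptors of COPII vesicles, and CREB3L2, a factor that raises such genes (0.66 ± 0.07). SEC24A lost its call without FDI6 replicate 1 (0.51) and control replicate 2 (0.58), and neither SEC24A (0.25) nor CREB3L2 (0.44) was called with the correction. SEC61A1, the ER channel, had 186, 210 and 206 CPM against 236, 230 and 230 (-0.21) and was not called.

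Matrix and basement-membrane genes had 7 risers and 3 fallers in 27 (median 0.069). CCN2, a target of YAP and TGF-beta, had 34.7, 28.2 and 32.3 CPM against 17.0, 15.8 and 17.7 (0.91 ± 0.10). It and SPOCK1, a secreted proteoglycan (0.88 ± 0.14), rose, with separate groups, and COL5A1 (-0.79 ± 0.14) and AGRN (-0.66 ± 0.12) fell. AGRN was not called without FDI6 replicate 1 (-0.52) or with the correction (-0.49), and without FDI6 replicate 1 the list had 1 faller. FN1, fibronectin, had 417, 330 and 334 CPM against 479, 480 and 480 (-0.41) and was called lower with the correction (-0.61).

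Extracellular proteases and their inhibitors rose in 8 of 17 cases, with no faller and a median of 0.278. MMP1, the interstitial collagenase, had 73, 79 and 108 counts in the FDI6 libraries and 0 in each control. Against a floor of 3 counts over the 3 controls (0.0516 CPM), it was at least 96.8-fold higher. MMP3, with 19, 13 and 10 counts against 0 in each control, was at least 15.6-fold higher and was named after its values were seen. These bounds cover counting error alone. MMP1 and MMP3 passed the filter through the FDI6 libraries alone and had to be higher there, so the list's count is a description.

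Genes of the urokinase system were among the risers. PLAU, urokinase, had 160, 153 and 173 CPM against 56.8, 52.5 and 62.0 (1.505 ± 0.08), and its receptor PLAUR had 69.7, 69.6 and 67.9 against 31.7, 30.0 and 31.0 (1.16 ± 0.07). The groups were separate for both. An antisense gene covers 31% of the exon bases of PLAU. With the correction 7 members of the list rose.

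Secreted growth factors and their binding proteins had 10 risers and 3 fallers in 30 genes (median -0.092). After STC1, which had 45.8, 38.2 and 48.8 CPM against 6.45, 6.68 and 4.82, the largest rises under the naming rule were in IGFBP1 (1.38 ± 0.11) and FST, the activin-binding follistatin (1.37 ± 0.12). INHBA, an activin subunit, rose by 3.76 from low counts and was named after its values were seen. IGFBP3, the main carrier of insulin-like growth factors, fell from 220, 228 and 231 CPM to 110, 101 and 94.2 (-1.15 ± 0.07). INHBB (-1.01 ± 0.17) and BMP4 (-0.79 ± 0.09) fell, and TGFB2 overlapped. With the correction the list had 9 risers and 4 fallers and a median of 0.11, and without FDI6 replicate 3 it had 5 fallers.

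The labelled cell type was checked against 8 lung epithelial markers, all of which were detected. Of these, 3 fell and none rose, with a median of -0.521. CDH1, E-cadherin, had 13.3, 10.1 and 9.48 CPM against 30.3, 29.9 and 32.1 (-1.49 ± 0.12), KRT8 had 2655, 3332 and 3195 against 5608, 5453 and 5060 (-0.81 ± 0.08), and KRT18 had 1492, 1625 and 1530 against 2481, 2438 and 2372 (-0.65 ± 0.05). With the correction KRT8 (-0.51) and KRT18 (-0.33) were not called, while CDH1 was (-1.61), and the list had 1 riser, 1 faller and a median of -0.277. Of 13 markers of other cell types 2 passed the filter, and 1 fell. It was COL1A1, with 4.85, 8.67 and 8.37 CPM against 17.3, 18.8 and 17.4 (-1.28 ± 0.17). The summed level of the 2 tested markers ran from 6.7 to 11.5 CPM in the FDI6 samples and from 20.3 to 23.0 in the controls. PTPRC, of leukocytes, and PECAM1, of endothelium, were at or near 0 in all samples. Without FDI6 replicate 3 the second marker was also called lower. In bulk samples, fewer cells of a kind and less RNA per cell cannot be told apart.

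Transcripts of the compound's known target and most cell-cycle genes stayed within the fold limit. Over FOXM1, MYBL2 and the 10 shared target genes that the study names, 2 of 12 fell, none rose and the median was -0.372. The share of fallers was 16.7%, against 5.77% of all genes tested. All 12 log2 fold changes were below 0, and 9 of these genes were lower in every FDI6 sample than in every control. Over all genes tested, 51.6% did not overlap in either direction. The study chose the 10 from its ChIP-seq and from falls in the knockdown libraries of the series, and the FDI6 libraries had no part in that choice. FOXM1 transcripts had 90.1, 111 and 97.7 CPM against 131, 126 and 129 (-0.37 ± 0.08, adjusted p = 0.00400), and MYBL2 had 116, 154 and 136 against 195, 198 and 188 (-0.51 ± 0.09, adjusted p = 0.00105). Both were lower in all 3 FDI6 samples and stayed under the fold limit, and MYBL2 passed it without FDI6 replicate 2 (-0.62).

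NEURL1B, a ubiquitin ligase of the Notch pathway, fell from 20.2, 21.6 and 19.9 CPM to 10.3, 11.9 and 10.7 (-0.91 ± 0.10). CENPA, the centromeric histone, had 30.0, 37.0 and 35.5 CPM against 55.8, 52.9 and 46.3 (-0.60 ± 0.10), close to the fold limit. It was not called without FDI6 replicate 1 (-0.51), control replicate 1 (-0.54) or control replicate 2 (-0.58), or with the correction (-0.50). The other 8 targets were not called, with CCNF at -0.46, CDKN3 at -0.43 and CCNB1 at -0.38 as the lowest.

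Of 54 G2/M-phase genes 4 fell (7.4%) and none rose (median -0.141), and of 42 S-phase genes 1 rose (2.4%) and none fell (median -0.062). Over all genes tested 8.0% rose and 5.77% fell. In the G2/M-phase list 26 genes lay lower in every FDI6 sample than in every control, and 5 lay higher. In the S-phase list the numbers were 15 and 5. Over all genes tested, 51.6% did not overlap in either direction. With the correction the medians of both lists were lower, at -0.284 and -0.177. BIRC5, or survivin, had 182, 193 and 182 CPM against 299, 277 and 283 (-0.62 ± 0.06), and CDCA3 fell by 0.61, but neither was called with the correction (-0.56 and -0.36), which left 1 faller. MKI67 and TOP2A, markers of dividing cells, overlapped between the groups (both -0.03). Over the alternatives their lowest values were -0.33 and -0.38, under the fold limit. MCM5, a replication helicase subunit, had -0.52 and PCNA -0.25, under the fold limit. CASP8AP2, the S-phase riser (0.64), was not called without FDI6 replicate 1 (0.57) or with the correction (0.26).

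The FDI-6 effect was set beside that of FOXM1 siRNA (siFOXM1, 4 libraries, 25 nM) against its own scrambled control (siControl, 4 libraries). The difference between the 2 effects was the interaction term of an edgeR fit over 14 libraries, in which 1959 of 17026 genes were called (11.5%). The experiments used separate controls, and the experiment cannot be told apart from the treatment in the levels themselves. HSPA6 had a log2 fold change of 7.30 after FDI-6 and -0.28 after siFOXM1, a difference of 7.60 ± 0.89 (adjusted p = 6.14e-05). CXCL8 had 4.71 and -0.74, a difference of 5.44 ± 0.90 (adjusted p = 0.000901). The siFOXM1 changes of both genes had wide errors (SE 0.72 and 0.63). Both genes were picked with their rise after FDI-6 known, so their differences are a description.

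FOXM1 itself fell by 3.38 on the log2 scale with its siRNA and had -0.37 with the compound, a difference of 3.01 ± 0.14. NEURL1B fell with both, and by less with FDI-6 (difference 1.99 ± 0.24). CENPA had -0.60 and -0.75 (difference 0.15 ± 0.14). FOXM1 is the target of the siRNA and NEURL1B and CENPA were chosen on the knockdown libraries, so these differences are a description. The effects on MYBL2 (-0.51 and -0.06) were not called different (-0.46 ± 0.16, adjusted p = 0.0554). A p that misses the threshold does not show that the effects are alike.

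**Figure D5:**
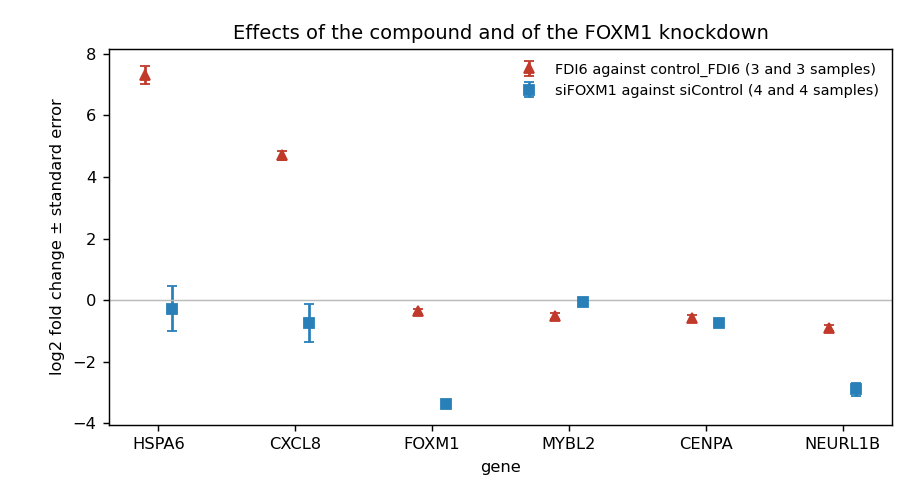
Log2 fold change ± standard error (y axis) of 6 genes (x axis) after FDI-6 (red, 3 against 3 samples) and after siFOXM1 (blue, 4 against 4 samples). HSPA6 and CXCL8 were raised by the compound (7.30 and 4.71), and FOXM1 was lowest with its siRNA (-3.38).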

How the data were processed

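The authors deposited raw counts of read pairs for each gene and sample, not normalized. The submitters' processing notes name Trim Galore, STAR, HTSeq and hg38. The strand setting and HTSeq's mode are not given in the sources used here. Rows that name no gene (no feature, ambiguous, not aligned, not unique) held 19.23% to 20.05% of each file and stayed out of library sizes and tests. Of 58721 identifiers 58207 were matched to GENCODE V44, which gave positions, overlaps, transcript lengths and GC content.

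Samples were grouped by their titles. The 3 FDI6 and 3 control_FDI6 libraries were fitted with edgeR 4.0.16 in R 4.3.3 (filterByExpr, TMM, quasi-likelihood test, Benjamini-Hochberg adjustment over all 15240 genes). Calls needed a change of over 1.5-fold at an adjusted p below 0.05. CPM are TMM-scaled, and the standard error is the log2 fold change divided by the square root of F. The difference from siFOXM1 is an interaction term over 14 libraries.

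The 42 gene lists (1067 genes) and the genes were chosen with earlier results of these data known. Named were FOXM1, MYBL2, 10 targets, HSPA6 and CXCL8, anchor genes marked in each list, up to 3 called risers and 3 fallers per list averaging 100 or more counts without overlap, and the 10 largest rises and falls over all genes. Others are marked as named after their values were seen, and a few genes under the rule are not reported here. Tried in turn were upper-quartile and RLE scaling, DESeq2 1.42.0, at least 10 counts in every library, no filter, glmTreat, all 24 libraries in a single fit, the replicate block and leaving out each library. A length and GC correction was added after the values were seen. It subtracts, in each library, trends with 5 degrees of freedom drawn through 11939 genes averaging 50 or more counts, and 99.6% of the genes tested had a length and GC value. The fits were tested on simulated data.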

Additional observations from a re-analysis of the deposited data

Results flagged for a closer look

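In 4 genes the effect of FDI-6 and the effect of siFOXM1 differed by a test of the difference itself, edgeR's interaction term over both experiments. The log2 difference, FDI-6 minus siFOXM1, was 7.60 for HSPA6, 5.44 for CXCL8, 3.01 for FOXM1 and 1.99 for NEURL1B. All 4 differences kept their direction and their call in the 20 alternatives run for this test, between 6.74 and 8.44 for HSPA6 and between 5.09 and 5.79 for CXCL8. HSPA6 and CXCL8 were picked with their rise after FDI-6 known. FOXM1 is the target of the siRNA, and the study chose NEURL1B on the knockdown libraries. The values of all 4 genes are therefore a description. The 2 experiments had separate controls, and the control cells of the siRNA experiment were transfected while nothing in the labels says so of those for FDI-6.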

How the results depend on the processing

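Of 131 called genes named here, 129 kept their calls with DESeq2, 130 with RLE scaling or no filter, 128 with upper-quartile scaling, 106 with all 24 libraries, 113 to 130 without each library in turn, 77 with glmTreat and 98 with the length and GC correction. Among the calls lost with all 24 libraries were those of FGG (adjusted p = 0.159), AGR2 (0.297), SLC2A3 (0.290), IGFBP3 (0.092) and GPX2 (0.070), and the replicate block ended only that of MT-ND3. glmTreat, which tests against the fold limit itself, called 358 genes higher and 138 lower (496), and the correction called 780 higher and 554 lower (1334). Leaving out 1 library gave 1039 to 1257 higher and 666 to 1149 lower (1705 to 2406 in all), with 1121 and 703 without FDI6 replicate 1. Other settings gave 1846 to 2286 calls. Replicate numbers were not shown to pair the samples: same-numbered FDI6 and control libraries correlated at -0.12, 0.167 and -0.296, and the replicate block gave 1173 higher and 840 lower genes (2013). Signs turned in named genes that were not called. With upper-quartile scaling they were CS (-0.0038), FASN (-0.017), ISG15 (-0.017), MT-CO1 (-0.022) and MUC5AC (-0.021). With the correction they were ACADM (-0.16), AREG (0.056), MT-ND1 (0.069), MUC5AC (-0.024), PHGDH (0.081), PSMC4 (0.12), PSMD12 (-0.13) and TGFB2 (-0.24). Leaving out 1 library gave a range of -0.010 to 0.13 for ACADM, -0.048 to 0.0086 for AREG, -0.034 to 0.072 for CS, -0.015 to 0.099 for FASN, -0.23 to 0.20 for ISG15, -0.075 to 0.014 for MKI67, -0.11 to 0.13 for MT-CO1, -0.14 to 0.0023 for MT-ND1, -0.13 to 0.15 for MUC5AC, -0.048 to 0.00014 for NDUFS1, -0.073 to 0.15 for TGFB2 and -0.12 to 0.045 for TOP2A. The causes were not tested. Depth limits the low genes: list members that the filter removed, such as IL6, were not tested.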

Other observations

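The FDI6 calls were also split by the kind of gene. Of 12837 protein-coding genes tested 8.49% were called higher and 5.64% lower. Of 1549 long noncoding RNA genes 4.84% were called higher (75) and 7.04% lower (109), and their median log2 fold change was -0.104. The difference between the kinds was not tested, and poly(A) capture measures only noncoding transcripts that carry a tail.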
